A study of Mus musculus with 20 samples.

Results

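The genes described here are those of the cytosolic ribosomal proteins, the protein parts of the ribosomes that translate nuclear mRNAs. They were taken by symbol, as Rpl or Rps followed by a number with an optional letter or l suffix, with Rplp0, Rplp1, Rplp2 and Rpsa, and without the Rps6 kinases, Rps19bp1 and pseudogene symbols. The rule found 81 of the 11075 genes in the table, 49 of the large subunit and 32 of the small subunit, and 79 of them had the mean count of at least 5 that the test asked for. Rpl30 and Rps27, with mean levels of 2.92 and 4.96, were not tested.

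The cells were NIH3T3, an established line of mouse embryo fibroblasts, plated and used 4 days later. The libraries fell into 5 groups of 4. Control cells stayed at 5% CO2 and were taken at 0 h. The other groups were cells moved to a chamber with 1% CO2 for 2 h or for 4 h, and cells that stayed at 5% CO2 with 18 mM NaOH in the medium for 2 h or for 4 h. All groups were grown in the same bicarbonate-buffered medium with serum, and both treatments make the medium alkaline, so that NaOH stood as the control for pH. Both treatments share the 0 h libraries as their control. In the comparisons against 0 h the effects of elapsed time, of handling and of the treatment cannot be told apart, since untreated cells of 2 or 4 h were not analysed here. The 1% CO2 and NaOH cells shared the time since 0 h and were also compared directly, although only the former changed incubators. The study calls the replicates biological, and the labels do not say whether they were separate cultures. The p-values cover only how these libraries of 1 cell line vary.

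Every ribosome needs about equal numbers of its proteins, and the mRNAs of ribosomal proteins are among the most abundant of a growing cell. Most of these mRNAs begin with a run of pyrimidines, the 5′ terminal oligopyrimidine (TOP) tract, through which the kinase mTOR and the RNA-binding protein Larp1 set how much of them is translated. Unused ribosomal proteins are degraded, and some of them, Rpl5 and Rpl11 first of all, bind Mdm2 and so raise p53. Several members have a paralog of their own, such as Rpl22l1 beside Rpl22, which may take the place of the parent in the ribosome.

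The promoters of 61 of the 81 members, 72 annotated starts in all, were found in the RefSeq promoter table (GRCm38.p6, 250 bases before to 50 after each start). The sequences below show the start region of members with and without a pyrimidine tract at the start given there, for genes whose levels are described further on. Each runs 5′ to 3′ from 20 bases before the annotated start to 10 bases from it, and capitals mark a run of at least 5 C or T that covers the start or begins at most 5 bases from it, where it lies inside the window.
Rplp2: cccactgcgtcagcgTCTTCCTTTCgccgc
Rps9: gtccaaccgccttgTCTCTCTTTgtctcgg
Rps26: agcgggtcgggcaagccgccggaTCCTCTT
Rpl22l1: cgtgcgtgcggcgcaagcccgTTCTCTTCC
Rpl22: atcagcgctgcttctggaatgttccagctc
Rpl7l1: gcccggtgaggctgcgcaagcgcagtagct
Rpl13: gtcacttccctttcgcctgattttgattgg
Rpl5: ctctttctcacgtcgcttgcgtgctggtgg
The windows lie, in GRCm38, for Rplp2 at chr7:141447631-141447660 on the plus strand, Rps9 at chr7:3704021-3704050 on the plus strand and Rps26 at chr10:128626497-128626526 on the minus strand. Those of the paralog pair are for Rpl22l1 at chr3:28805488-28805517 on the plus strand and Rpl22 at chr4:152324416-152324445 on the plus strand, the first of the 2 annotated starts of Rpl22. The others are for Rpl7l1 at chr17:46782647-46782676 on the minus strand, Rpl13 at chr8:123102330-123102359 on the plus strand and Rpl5 at chr5:107900508-107900537 on the plus strand. Rpl22l1 had a tract of 10 pyrimidines at its start while Rpl22, Rpl7l1, Rpl13 and Rpl5 had none of 5 or more at the promoter table's start. The annotated start need not be the start used in these cells, and runs further upstream were not counted. Such a run opens the Rpl5 window, and its first base, chr5:107900508, is where the RefSeq gene of Rpl5 is annotated to begin. Rpl5 is thus without a tract only at the start taken here. The windows of Rpl13 and Rpl22 also hold a run of at least 5 upstream of the start, which the rule did not count.

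A tract of at least 5 was found at 31 of the members' 72 starts (43.1%), against 23.6% of all 32851 starts in the table, and a tract of at least 10 at 16 (22.2%), against 3.38%. The start base itself was C at 30.6% of the members' starts and at 16.3% of all. Searched on both strands of the 300 bases, the core of ETS factors, CCGGAA, was found in 35 of the 72 (48.6%) against 14.9% of all, and the YY1 core, GCCATNTT, in 17 (23.6%) against 6.05%. The TATA box, TATAAA, was in 7 (9.72%) against 13.6% of all. These shares describe the sequences and were not tested.

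Levels are counts of unique molecular identifiers (UMIs) from bulk MARS-seq, which reads the 3′ ends of polyadenylated RNA, so that each molecule gives 1 tag whatever its length. TMM factors, which rest on the assumption that most genes do not change, scale them, and they are given as mean ± SD of 4 libraries. A library held 1325293 to 5640523 counts. The 81 members together took 16.9% ± 0.236 of all counts in control cells, 16.2% ± 0.790 and 16.6% ± 0.666 after 2 and 4 h of 1% CO2, and 17.0% ± 0.640 and 17.2% ± 0.768 after 2 and 4 h of NaOH (SD, n = 4). Single libraries ranged from 15.1% in a library of 1% CO2 at 2 h to 18.1% in a library of NaOH at 4 h, and all 4 treated groups overlapped with control cells. The counts of the small subunit genes were 0.694 ± 0.0157 of those of the large subunit in control cells and 0.690 to 0.698 in the means of the other groups. In bulk samples, fewer cells and less RNA per cell cannot be told apart.

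**Figure D1:**
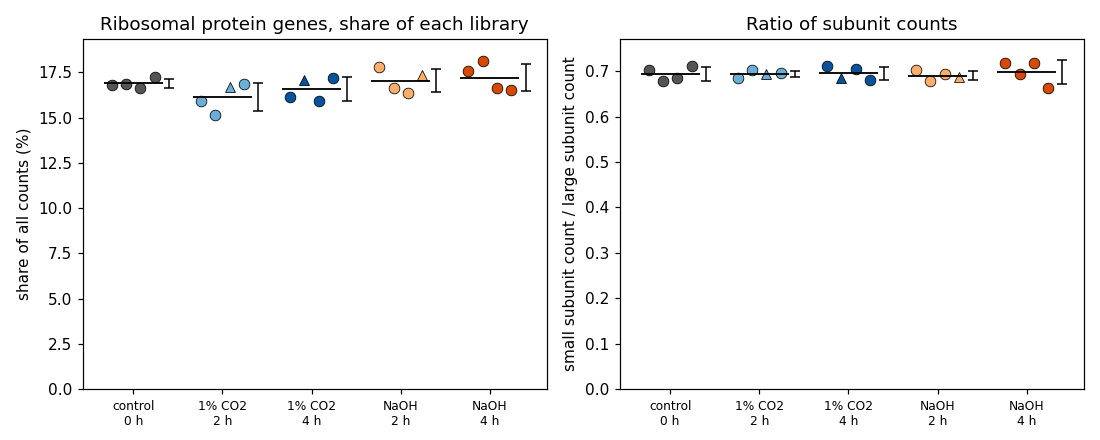
Share of all counts taken by the 81 ribosomal protein genes (left, %) and the ratio of small to large subunit counts (right) in each of the 20 libraries. Points are libraries, triangles the 3 libraries that stand apart, lines the group means and bars ± SD (n = 4); both axes start at 0, and the shares lie between 15.1% and 18.1%.

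All 10 of the fibroblast markers listed were in the table, with a summed level of 108929 to 146638 per library. Of the other cell types, 2 of 4 immune markers (summed level 97.4 to 202), 1 of 3 epithelial (0 to 8.91) and 1 of 3 muscle markers (9.30 to 28.0) were in the table, and none of 3 endothelial and 2 fat markers. Over the 30 pairs of libraries within a group the counts differed by more than sampling noise, with a chi-square per degree of freedom of 2.03 to 10.8. A set of 3 libraries stood apart from their groups, replicate 3 of 1% CO2 at 2 h, replicate 2 of 1% CO2 at 4 h and replicate 4 of NaOH at 2 h. On the first component of the deviations from group means, with 24.1% of the variance of the 6219 genes with a mean level of at least 50, they lay at 7.62 or more and the other 17 libraries at 5.20 or less.

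The members showed that difference too, and most of them were among the genes of the component that set these libraries apart. How many of all genes lay at the extreme of their group in these libraries was not counted. In each of the 3 libraries 24 members, among them Rplp0, Rps3, Rps7, Rps27l and Rpl27, had the highest level of their group, and 9, among them Rpl41, Rplp2, Rpl10a and Rps15, had the lowest. Rplp0, a stalk protein of the large subunit often used as a reference gene, had levels of 7051, 6039, 12179.5 and 6885 in replicates 1 to 4 of 1% CO2 at 2 h, 8356, 14355, 6816 and 7912 at 4 h, and 10631, 7877, 7499 and 13287 after 2 h of NaOH. The control libraries had 6566, 7483, 8202 and 8557, and those of NaOH at 4 h 11293, 8472, 8561 and 7746. Rpl41, which codes for a very short peptide, went the other way, with 31179.6, 25663, 13366 and 34388 at 1% CO2 for 2 h against 28976, 24956, 26059 and 29828 in control cells. At 1% CO2 for 4 h it had 21470, 21145, 25335 and 31660, with replicate 2 only just below replicate 1. After 2 h of NaOH it had 36758, 27562, 34625 and 23623. Neither gene was called in any of the 6 comparisons. Counts of called members in the 6 comparisons are therefore given below with and without these 3 libraries, an alternative chosen after seeing the data. How many of all genes were called without them was not counted.

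Levels of the members spread over 4 orders of magnitude although their proteins are needed in about equal numbers. Of the 81, 6 had a mean level of at least 15000, 39 of 5000 to 15000, 21 of 1000 to 5000, 5 of 100 to 1000 and 10 under 100, with a median of 6159. The highest were Rplp1, an acidic protein of the stalk that binds elongation factors, at 29568, then Rpl41 at 28713 and Rpl4 at 18415. The lowest tested were Rps15a at 5.66, Rpl34 at 9.57 and Rpl21 at 19.5, structural proteins of the subunits. Rpl39, which lines the exit tunnel, had 36.1, and its paralog Rpl39l, known from testis in the mouse, 1439.8.

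Ribosomal protein genes have many processed copies in the genome, and reads that fit several places are usually lost in counting. Of the last 300 bases of each member's transcript (GENCODE vM21), cut into all words of 50 bases, 60 members shared at least 1 word with a transcript of another gene, 44 shared over 50% and 21 shared none. Of the 10 members under a level of 100, 7 shared over 50%, as did 34 of the 66 members with a level of at least 1000. Rpl5 and Rpl21, at 35.1 and 19.5, shared no word with an annotated transcript, and Spearman's rho between level and share over the 81 members, which come from the same libraries, was -0.13. Copies outside annotated transcripts were not searched. The tests below compare the same gene between groups, and the levels of different genes are counts only, not amounts of protein.

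Among the 65 members of at least 1000 that did not switch (below), the coefficient of variation between libraries of a group had a median of 9.66% over genes, where counting alone would give 1.12%. It ran from 4.36% for Rpl12 to 40.3% for Rps3. Counts of 3 members switched between levels among libraries of 1 group, by the rule that the highest library had at least 4 times the lowest and a level of at least 20. They were Rps2, Rpl29 and Rps4x, and with a ratio of 2 in place of 4 there were 14.

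Rps2, a protein at the mRNA entry of the small subunit, had levels of 8523, 56.6, 8276 and 9163 in control cells. At 1% CO2 it had 9084, 4668, 48.2 and 9212 for 2 h, and 8759, 48.8, 7783 and 4731 for 4 h. After NaOH it had 11572, 4498, 10322 and 5132 at 2 h, and 10584, 10601, 10664 and 76.0 at 4 h. The 20 libraries thus fell on 3 levels, 4 libraries at 48.2 to 76.0, 4 at 4498 to 5132 and 12 at 7783 to 11572, which do not follow the groups. Of the 50-base words at its 3′ end, 78.1% were shared, with 51 other genes.

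Rpl29, of the large subunit, had 10.0, 52.6, 11.1 and 56.8 in control cells. At 1% CO2 it had 19.99, 54.3, 65.8 and 16.8 for 2 h, and 8.22, 61.6, 50.8 and 52.1 for 4 h. With NaOH it had 12.1, 54.5, 45.1 and 45.8 for 2 h, and 22.0, 64.1, 61.2 and 61.2 for 4 h, so that each group held libraries on separate levels. Rps4x, the X-linked small subunit gene, was spread from 166 in a library of 1% CO2 at 2 h to 1064 in a library of NaOH at 4 h, with 1007, 522, 284 and 259 in control cells. At 1% CO2 its levels were 690.2, 480.2, 544 and 166 at 2 h, and 294, 315, 821 and 972 at 4 h. The low libraries of these genes were partly the same: replicate 4 of NaOH at 4 h was the lowest of its group in Rps2 and Rps4x, while control replicate 2 was low in Rps2 and high in Rpl29. None of the 3 was called in any comparison (smallest adjusted p = 0.401, Rpl29 after 4 h of NaOH), with standard errors of 0.57 to 1.40 on the log2 scale. Without them the members' share was 16.7% ± 0.254 in control cells and 16.0% to 17.0% in the means of the other groups.

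**Figure D2:**
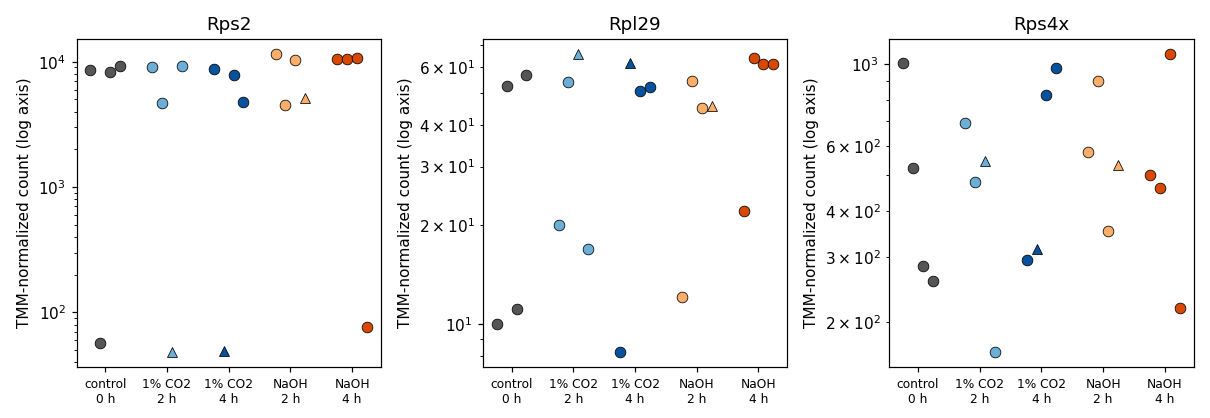
TMM-normalized counts of the 3 members whose counts switch between libraries of 1 group, on log axes. Points are libraries and triangles the 3 libraries that stand apart; Rps2 lies at 48.2 to 76.0 in 4 libraries and at 4498 or more in the others.

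At 1% CO2 for 2 h few members were called. A member was called where the quasi-likelihood test of edgeR on all libraries, adjusted by Benjamini-Hochberg over all 9726 genes tested, gave an adjusted p of at most 0.05. By that rule 2 of 79 were higher, against 16.0% of all genes tested, and 1 was lower, against 12.4% of all genes. With a log2FC of at least 1 in size as well, the study's rule, 0 members passed, against 5.53% of all genes. The median log2FC of the members was -0.0039, beside -0.0084 for all genes, and without the 3 libraries 2 were higher and 2 lower. Leaving out control replicate 1 or 4 or replicate 1 or 4 of 1% CO2 left 1 higher, without control replicate 3 none was lower, and without replicate 3 of 1% CO2 2 were lower.

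Among the members called were Rpl13 and Rpl7l1. Rpl13, of the large subunit, had 3563, 3328, 4347 and 3677 in control cells and 3259.7, 2824, 3157 and 3121 at 1% CO2 (log2FC -0.27, SE 0.08, adjusted p = 0.00573). Every treated library was below every control library, and without control replicate 3, the highest, adjusted p was 0.0749. Rpl7l1 is described with the paralogs.

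After 4 h of 1% CO2 more members were called, nearly all higher, and Rpl22 fell. There were 17 higher (against 20.3% of all genes tested) and 2 lower (against 18.9%), so that the share of members called higher, 21.5%, was near that of all genes, and the share called lower, 2.53%, was below it. By the study's rule 2 passed, Rpl22l1 and Rpl34, against 8.04% of all genes. The median log2FC of the members was 0.059, and without the 3 libraries 17 were higher and 3 lower. The count higher was 8 without control replicate 1 and 9 without replicate 2 of 1% CO2, the count past the study's rule was 1 without control replicate 4 or replicate 4 of 1% CO2, and the count lower was 1 without control replicate 3 or 4 or replicate 2 or 3 of 1% CO2, and 5 without replicate 4.

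The members higher by the most were Rpl22l1, Rpl34 and Rpl39, all of low counts. Each of them was among the members that switched with a ratio of 2 in place of 4, as was Rps7. Rpl34 had 5.57, 7.17, 8.91 and 4.00 in control cells and 8.22, 10.5, 12.4 and 22.1 after 4 h of 1% CO2 (log2FC 1.00, SE 0.35, adjusted p = 0.0226). The groups overlapped by 1 library, and the call was lost without control replicate 1 or 4 or without replicate 4 of 1% CO2 (adjusted p = 0.0623, 0.0639 and 0.139). Rpl39 had 35.1, 22.3, 22.3 and 28.0 in control cells, and 70.3, 53.5, 38.4 and 26.9 after 4 h of 1% CO2 (log2FC 0.83, SE 0.24, adjusted p = 0.0057), with overlap. Without replicate 1 of 1% CO2, the highest, its adjusted p was 0.0898. The other members called higher, from Rps10 at 0.23 to Rps7 at 0.66, changed by less. Rpl13, the other member called lower, had a log2FC of -0.20 (adjusted p = 0.0337), and adjusted p was 0.0747 without the 3 libraries and 0.0706 to 0.293 without control replicate 3 or 4 or replicate 2 or 3 of 1% CO2.

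After NaOH more members were called higher than lower at both times, most by small changes. After 2 h, 23 of 79 were higher (29.1%, against 23.0% of all genes) and 0 lower (against 20.4%). Of the single members 1 passed the study's rule, Rps15a, against 12.0% of all genes. After 4 h, 23 were higher (29.1%, against 28.2% of all genes) and 1 lower (against 26.9%), and 0 passed the study's rule, against 15.6% of all genes (1 without control replicate 2 or 3 or replicate 1 or 3 of NaOH). The median log2FC of the members was 0.163 at 2 h and 0.218 at 4 h, while that of all genes was -0.026 and -3.23e-05. Without the 3 libraries 28 were higher at 2 h and 36 at 4 h, with 0 and 1 lower. The shares of all genes called without them were not counted, so these counts cannot be set against the shares above. The standard deviation of log2FC over the members was 0.27 and 0.22, against 0.78 and 0.79 over all genes, so that few members moved far.

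TMM scaling decides where 0 lies for changes of this size. With library sizes alone the median of all genes was -0.21 and -0.19 after 2 and 4 h of NaOH, -0.12 after 4 h of 1% CO2, and 0.12 for 1% CO2 against NaOH at 2 h. The members' own median was then -0.022 and 0.027 after NaOH and -0.057 after 4 h of 1% CO2, so that its sign turned in 2 of these. Relative to the median of all genes the members lay at 0.190 and 0.218 after 2 and 4 h of NaOH with TMM, and at 0.192 and 0.219 with library sizes alone. With only genes of a mean of at least 20 they lay at 0.158 and 0.167, and without replicate 1 of NaOH at 4 h at 0.160 after 4 h. The statements on higher and lower members are therefore relative to the median gene. With library sizes alone 4 were higher and 6 lower after 2 h of NaOH, 9 and 6 after 4 h, and 6 and 14 after 4 h of 1% CO2. How many of all genes were called in that setting was not counted. Calls of Rpl4 and Rplp1 at both times of NaOH, of Rpl5, Rpl7l1 and Rpl36al after 2 h of NaOH, of Rpl7l1 after 2 h of 1% CO2, and of Rpl36al, Rpl39l, Rps26 and Rps27l after 4 h of 1% CO2 were then lost, with adjusted p from 0.051 to 0.964.

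**Figure D3:**
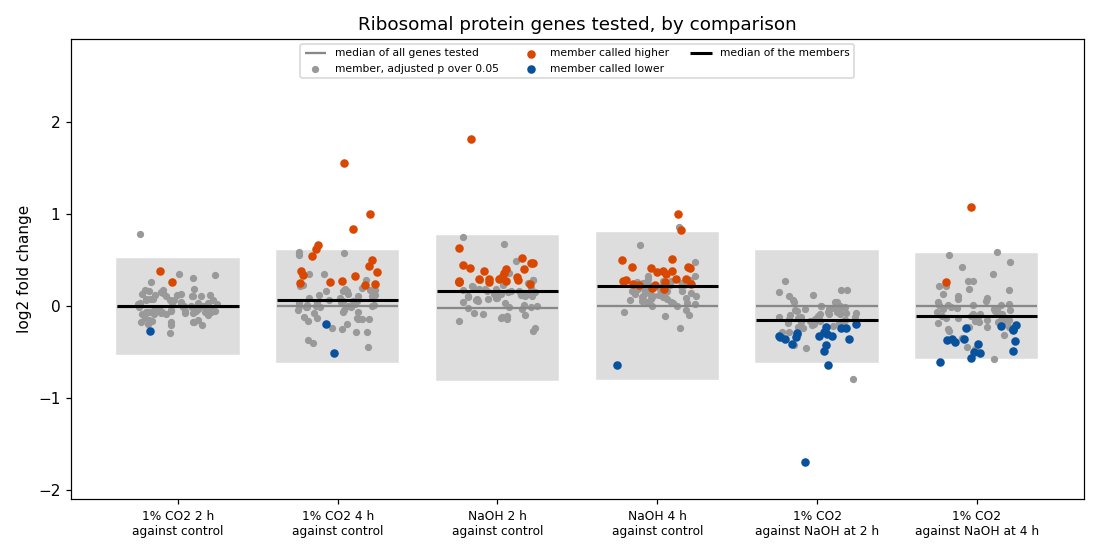
Log2 fold changes of the 79 ribosomal protein genes tested, in 6 comparisons. Points are genes, coloured by call at an adjusted p of at most 0.05; the black line is their median, the grey line the median of all 9726 genes and the grey band ± 1 SD of all genes. Most called members lie inside the band, and the members' median is 0.163 and 0.218 after 2 and 4 h of NaOH.

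Large and small subunit genes were called at like shares. After 2 h of NaOH 14 of 48 large (29.2%) and 9 of 31 small subunit genes (29.0%) were higher, against 23.0% of all genes. After 4 h it was again 14 of 48 and 9 of 31, against 28.2%, with medians of 0.186 and 0.223. After 4 h of 1% CO2 it was 10 of 48 (20.8%) and 7 of 31 (22.6%), against 20.3% of all genes. Of the 21 members that shared no 50-base word at the 3′ end, 9 and 8 were higher after 2 and 4 h of NaOH. Of the 58 tested that shared one, 14 and 15 were higher, against 23.0% and 28.2% of all genes. After NaOH the share called higher was thus larger among members with no shared word. After 4 h of 1% CO2 it was smaller among them, with 3 of 21 against 14 of 58, beside 20.3% of all genes. These differences were not tested. The median log2FC after 4 h of NaOH was 0.196 without and 0.220 with a shared word, above 0 in both.

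Rplp1, with the highest counts of all members, had 27237, 27608, 25763 and 29335 in control cells, 35975, 30707, 33535 and 34563 after 2 h and 32585, 36195, 29806 and 30134 after 4 h of NaOH. Every NaOH library was above every control library, with a log2FC of 0.29 at 2 h (SE 0.08, adjusted p = 0.00314) and 0.23 at 4 h (adjusted p = 0.0158, and 0.0929 without replicate 2 of NaOH). Rplp2, its partner in the stalk, was not called against 0 h (0.09 and 0.26). The stalk genes thus did not pass together, and Rplp0 had log2FCs of 0.35 and 0.23 with adjusted p = 0.299 and 0.485.

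Rps26, which sits where the mRNA leaves the small subunit, had 7612, 7398, 7278 and 7663 in control cells, 10799.8, 8745, 11141 and 12054 after 2 h of NaOH and 12202, 12325, 8773 and 9247 after 4 h. It rose without overlap at both times (log2FC 0.51, SE 0.14, adjusted p = 0.00459 at 2 h; log2FC 0.51, SE 0.14, adjusted p = 0.00361 at 4 h). At 1% CO2 it had 7458, 6596, 9147 and 7141 at 2 h, within reach of the control cells, and 8429.7, 12656, 8459 and 9288 at 4 h (log2FC 0.37, SE 0.14, adjusted p = 0.0348). Its level at 1% CO2 for 4 h was highest in replicate 2, 1 of the libraries that stand apart. Without that library adjusted p was 0.143, and it was 0.0562 to 0.0588 without control replicate 1, 2 or 3.

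Rpl4, a protein that reaches into the exit tunnel, rose at both times of NaOH, with a log2FC of 0.24 at 2 h and 0.20 at 4 h. Its call at 4 h was lost without control replicate 1 or 2 or replicate 2 of NaOH (adjusted p 0.0695 to 0.0991). Rpl34 had 11.9, 14.9, 8.74 and 14.8 after 4 h of NaOH against 5.57, 7.17, 8.91 and 4.00 in control cells (log2FC 0.99, SE 0.34, adjusted p = 0.0129). These levels rest on raw counts of 2 to 14 a library.

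Rps15a, of the small subunit, was the only member to pass the study's rule after NaOH, and its counts were the lowest of those tested. It had 1.11, 3.98, 4.46 and 4.00 in control cells, 10.2, 10.4, 13.4 and 10.6 after 2 h and 5.93, 6.87, 3.88 and 6.33 after 4 h of NaOH, and 7.37, 2.43, 3.71 and 0 after 2 h of 1% CO2. At 2 h of NaOH every library was above every control and every 1% CO2 library (log2FC 1.81, SE 0.43, adjusted p = 0.000822), while at 4 h adjusted p was 0.127. Its raw counts were 0 to 11 a library, and 77.3% of the words of its 3′ end occur in other genes. The part of reads from such copies in this result was not tested.

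Rpl5 and Rpl11 enter the ribosome together and bind Mdm2 outside it. Rpl5 had 27.3, 27.1, 33.4 and 33.6 in control cells, 42.7, 49.3, 43.8 and 51.1 after 2 h of NaOH and 35.6, 24.0, 36.9 and 47.5 after 4 h. It rose at 2 h with no overlap (log2FC 0.63, SE 0.18, adjusted p = 0.00611), and at 4 h its libraries overlapped with control cells (log2FC 0.27, SE 0.18, adjusted p = 0.219). Rpl11, with far more counts, ran from 5664 to 7501 over the 20 libraries and was called in none of the comparisons. Its log2FC after 2 h of NaOH was 0.07 (adjusted p = 0.49). Rpl21, the other gene of few counts named by the rule, likewise had adjusted p of at least 0.608 throughout.

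Rpl22, an RNA-binding protein of the large subunit that cells can do without, was the member with the most negative log2FC among those called against 0 h. It had 438, 351, 335 and 437 in control cells, 371, 373, 391 and 392 after 2 h and 291, 251, 268 and 288 after 4 h of 1% CO2. After NaOH it had 386, 397, 402 and 379 at 2 h and 244, 266, 241 and 257 at 4 h. At 2 h every treated library lay within the range of the control cells, and at 4 h all 8 treated libraries lay below all 4 of them. The log2FC at 4 h was -0.51 for 1% CO2 (SE 0.09, adjusted p = 1.92e-05) and -0.64 for NaOH (SE 0.09, adjusted p = 2.01e-07), each against the same control libraries. Without the 3 libraries it was -0.46 and -0.63, and 1% CO2 and NaOH at 4 h differed by 0.13 (adjusted p = 0.311).

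Rpl22l1, which in the mouse is kept low by the Rpl22 protein, had far fewer counts. It had 19.5, 15.9, 13.4 and 16.8 in control cells. At 1% CO2 it had 25.3, 19.4, 42.7 and 29.2 after 2 h, and 62.1, 61.6, 47.1 and 19.0 after 4 h. At 4 h, 3 of the 4 libraries were more than 2 times the highest control library and replicate 4 was within the control range (log2FC 1.55, SE 0.36, adjusted p = 0.00151). After NaOH it had 16.7, 46.8, 15.8 and 38.3 at 2 h and 28.8, 8.02, 28.2 and 26.4 at 4 h. At 2 h, 2 libraries were in the control range and 2 above it, and at 4 h 3 were above it and replicate 2 below, and Rpl22l1 was not called (adjusted p = 0.197 and 0.327).

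As a percentage of the Rpl22 count, that of Rpl22l1 was 4.21% ± 0.340 in control cells, 7.59% ± 2.401 and 17.5% ± 7.81 after 2 and 4 h of 1% CO2, and 7.54% ± 3.99 and 9.20% ± 4.18 after 2 and 4 h of NaOH (SD, n = 4). At 1% CO2 for 4 h it ran from 6.59% to 24.5%, above the highest control value of 4.54% in every library. At 4 h Rpl22l1 was higher at 1% CO2 than with NaOH (log2FC 1.07, SE 0.35, adjusted p = 0.0214), a call that was lost without replicate 1 or 2 of 1% CO2 (adjusted p = 0.0827 and 0.0726). In GRCm38 Rpl22 lies at chr4:152324436-152334082 and Rpl22l1 at chr3:28805508-28807424, and both are protein-coding.

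**Figure D4:**
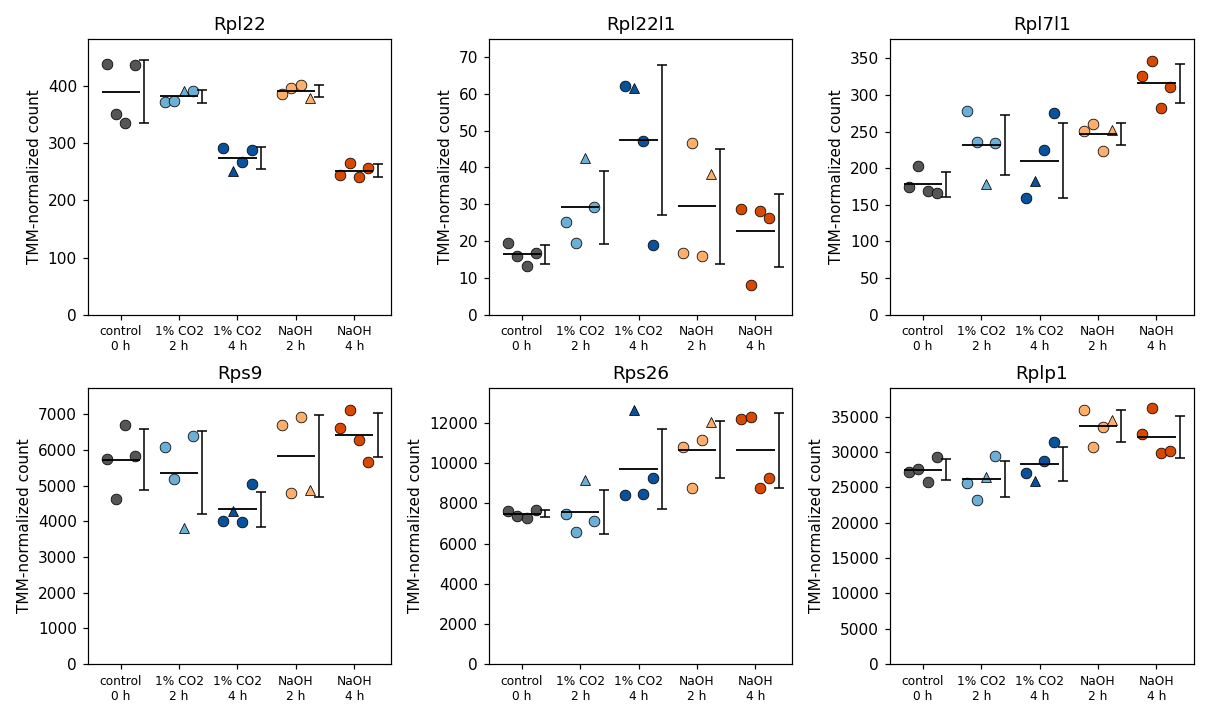
TMM-normalized counts of 6 ribosomal protein genes in the 20 libraries. Points are libraries, triangles the 3 libraries that stand apart, lines group means and bars ± SD (n = 4). Rpl22 lies at 241 to 291 in the 4 h libraries and at 335 or more in all others, and Rpl7l1 at 282 to 346 after 4 h of NaOH and at 278 or less in all others.

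Rpl7l1 is a paralog of Rpl7 whose yeast relative works in the making of ribosomes. It had 174, 203, 169 and 166 in control cells, 251, 259.7, 224 and 252 after 2 h and 325, 346, 282 and 310.4 after 4 h of NaOH. The 3 groups did not overlap (log2FC 0.46, SE 0.13, adjusted p = 0.00381 at 2 h; log2FC 0.82, SE 0.12, adjusted p = 8.65e-07 at 4 h). At 1% CO2 it had 278, 236, 179 and 235 at 2 h (log2FC 0.37, SE 0.13, adjusted p = 0.0231) and 159.9, 183, 224 and 275 at 4 h (log2FC 0.22, SE 0.13, adjusted p = 0.189), on both sides of the control range at 4 h. The call at 2 h was lost without control replicate 1 or 4 or replicate 1 of 1% CO2 (adjusted p 0.0568 to 0.101). Rpl7 itself, at 2593, had log2FCs of -0.14 and 0.07 after 2 and 4 h of NaOH and was not called.

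The remaining paralogs in the table were Rpl36al, Rpl39l and Rps27l, and all 3 were called higher after 4 h of 1% CO2 and not after 4 h of NaOH. Rpl36al, the autosomal copy of Rpl36a, had 863, 894, 886 and 844 in control cells and 1150.2, 1300.0, 975 and 1069.8 after 4 h of 1% CO2 (log2FC 0.37, SE 0.10, adjusted p = 0.00491), without overlap. It was also higher after 2 h of NaOH (0.29, adjusted p = 0.0242), a call lost without control replicate 1 or 4 or replicate 1 or 4 of NaOH (adjusted p 0.0504 to 0.0989). Rpl39l had 1214, 1375, 1371 and 1229 in control cells, and 1855, 1838, 1471 and 1381 after 4 h of 1% CO2 (log2FC 0.34, SE 0.11, adjusted p = 0.016), with adjusted p of 0.050 to 0.0699 without control replicate 1 or replicate 1 or 2 of 1% CO2. Rps27l, a paralog of Rps27 that p53 is known to switch on in human cells, had 1115, 1326, 1139 and 1053 in control cells, and 1772, 2444, 1336 and 1563 after 4 h of 1% CO2 (log2FC 0.62, SE 0.23, adjusted p = 0.0415). Its highest library was replicate 2, which stands apart, and leaving out any of 5 libraries, that one or replicate 1 of 1% CO2 or control replicate 1, 3 or 4, gave an adjusted p of 0.0704 to 0.160.

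For Rpl36al, the difference between 1% CO2 and NaOH was -0.22 at 2 h and 0.26 at 4 h, and the change of this difference from 2 to 4 h passed the test (log2FC 0.48, SE 0.15, adjusted p = 0.0242). For Rpl39l and Rps27l the difference at 4 h was 0.27 and 0.56 and did not pass (adjusted p = 0.0595 and 0.0717), so that an effect particular to 1% CO2 was not shown for them.

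Compared directly at the same time, more members were lower than higher at 1% CO2 relative to NaOH. At 2 h, 0 of 79 were higher, against 14.9% of all genes, and 19 were lower (24.1%, against 17.1% of all genes). Of all genes 6.51% passed the study's rule, and of the members 1, Rps15a. At 4 h, 2 were higher, Rpl22l1 and Rpl36al, against 16.3% of all genes, and 16 lower (20.3%, against 19.2%), and 1 passed the study's rule, Rpl22l1, against 6.48% of all genes. The median log2FC of the members was -0.15 at 2 h and -0.12 at 4 h, beside -0.0076 and -0.0038 for all genes. With library sizes alone the members' medians were -0.029 and -0.038, beside 0.12 and 0.074 for all genes, with 2 higher and 7 lower at 2 h and 6 higher at 4 h. Without the 3 libraries 19 were lower at 2 h, and 20 lower and 4 higher at 4 h. The 19 became 10 without replicate 2 and 12 without replicate 1 of 1% CO2. The 2 higher at 4 h became 1 without replicate 1 of 1% CO2 or replicate 1, 3 or 4 of NaOH, 0 without replicate 2 of 1% CO2 and 5 without its replicate 3, and Rpl22l1 no longer passed the study's rule without replicate 1 or 2 of 1% CO2 or replicate 2 of NaOH.

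At 2 h, Rps15a, Rpl5 and Rps26 were lower by the most, with log2FCs of -1.69, -0.64 and -0.50. Rps26 was at 7458, 6596, 9147 and 7141 at 1% CO2 and 10799.8, 8745, 11141 and 12054 with NaOH, and only replicate 3 of 1% CO2, which stands apart, reached into the NaOH range. Rplp1 was at 25608, 23217, 26434 and 29488 against 35975, 30707, 33535 and 34563, without overlap (log2FC -0.36, SE 0.08, adjusted p = 0.000575). At 4 h, Rpl7l1 (log2FC -0.61, SE 0.13, adjusted p = 0.000272), Rps9 and Rplp2 were lower by the most. Rps9, of the small subunit, had 4012, 4288, 3981 and 5049 at 1% CO2 and 6605, 7128, 6283 and 5653 with NaOH, without overlap (log2FC -0.57, SE 0.16, adjusted p = 0.00985). Rplp2 had 9051, 8650.2, 9107 and 11472 at 1% CO2, and 13500.5, 14816, 12734 and 13523 with NaOH, also apart (log2FC -0.51, SE 0.15, adjusted p = 0.0116), and neither Rps9 nor Rplp2 was called against 0 h (smallest adjusted p = 0.0544, Rps9 after 4 h of 1% CO2). The call of Rpl36al at 4 h (log2FC 0.26, SE 0.10, adjusted p = 0.0497) was lost without any of 6 of the 8 libraries compared (adjusted p 0.0549 to 0.200) and with the study's DESeq2 settings (adjusted p = 0.0623).

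The difference between the treatments changed from 2 to 4 h in 8 members. It moved towards 1% CO2 in 5 of 79, against 7.94% of all genes, and towards NaOH in 3, against 7.11% of all genes, both shares below those of all genes. The 5, Rpl37, Rps21, Rpl36al, Rps28 and Rpl32, each had the highest level of their group in all 3 libraries that stand apart. In such members the libraries of 1% CO2 at 4 h and NaOH at 2 h raise this change, and that of 1% CO2 at 2 h lowers it. The members' median change was 0.068 with these libraries and 0.060 without, and the counts called without them are not given here. Rpl37, of the large subunit, had 13164, 10909, 18508 and 13219.6 after 2 h of 1% CO2, and 18996, 21759.7, 18728 and 19772 after 4 h. With NaOH it had 17974, 17521, 16449 and 23056 at 2 h, and 18915, 19354, 15224 and 14627 at 4 h. It was thus lower than with NaOH at 2 h (-0.43) and not at 4 h (0.22), and the change was 0.65 (SE 0.19, adjusted p = 0.0274). A symbol close to it but outside the rule, Rpl37rt, had log2FCs of 0.86, 0.71 and 0.63 after 4 h of 1% CO2 and 2 and 4 h of NaOH.

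The genes around the ribosomal proteins moved in other ways. Factors that assemble and export ribosomes, of which 37 were tested, were higher in 28 and 30 after 2 and 4 h of 1% CO2. That was 75.7% and 81.1%, against 16.0% and 20.3% of all genes. After 2 and 4 h of NaOH 31 and 32 were higher, 83.8% and 86.5% against 23.0% and 28.2%. None was lower, against 12.4%, 18.9%, 20.4% and 26.9% of all genes. The median log2FC of these factors was 0.61, 0.95, 0.63 and 1.07, far from the ribosomal proteins' own medians of -0.0039, 0.059, 0.163 and 0.218. Nop56, a core protein of the particles that methylate rRNA, went from 67.8 ± 10.7 in control cells to 293 ± 43.7 at 1% CO2 and 377 ± 22.3 with NaOH, both at 4 h (log2FC 2.10 and 2.47, adjusted p = 3.5e-16 and 5.85e-19). Rrp12, which takes part in subunit export, went from 66.3 ± 8.91 to 241 ± 30.9 and 302 ± 36.8 (log2FC 1.84 and 2.16). Bysl, of the small subunit's assembly, had log2FCs of 1.59 and 2.15.

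Among ribosomal proteins with a symbol outside the rule, Fau and Gnb2l1 (the older symbol of Rack1) were higher after 4 h of NaOH, at 0.26 and 0.36. After 4 h of 1% CO2 Gnb2l1 was higher (0.22) and Fau was not called (-0.04). Of 70 mitochondrial ribosomal proteins, 11 were higher and 16 lower after 4 h of NaOH with a median of -0.014 (15.7% and 22.9%, against 28.2% and 26.9% of all genes), and 11 higher and 5 lower after 4 h of 1% CO2 (15.7% and 7.14%, against 20.3% and 18.9%). Of 18 other TOP mRNAs, mostly translation factors, 7 were higher and 2 lower after 4 h of NaOH (38.9% and 11.1%, median 0.13), and 1 and 2 after 4 h of 1% CO2 (5.56% and 11.1%, median -0.028). The elongation factor Eef2 had 0.49 after NaOH and -0.02 after 1% CO2, and the initiation factor Eif4b fell by both (log2FC -0.52 and -0.86).

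Tested were 8 host genes of small nucleolar RNAs, whose transcripts often start like TOP mRNAs. After 4 h of 1% CO2, 3 were lower (37.5%, against 18.9% of all genes) and none higher (against 20.3%). After 4 h of NaOH 2 were higher (25%) and 1 lower (12.5%), against 28.2% and 26.9% of all genes. After 2 h of NaOH 5 were higher (62.5%) and 0 lower, against 23.0% and 20.4% of all genes. At 1% CO2 for 2 h 0 were higher and 0 lower, against 16.0% and 12.4%. Gas5 fell from 3834 ± 50.1 to 2620.3 ± 46.2 and 2188 ± 164 (log2FC -0.55 and -0.81), while Snhg1 rose after 4 h of NaOH (log2FC 1.33, adjusted p = 1.79e-07) and had 0.03 after 4 h of 1% CO2 (adjusted p = 0.939). Among 21 regulators of ribosomal protein synthesis, Myc, which drives ribosome biogenesis, was higher at 2 and 4 h of 1% CO2 (1.18 and 0.94) and of NaOH (1.26 and 0.54). Larp1, which holds TOP mRNAs back when mTOR is off, was higher too (0.35 and 1.07 at 4 h). Mdm2, the ligase for p53 that free Rpl5 and Rpl11 bind, had 0.54 and 0.40 after 2 and 4 h of 1% CO2 and 1.42 and 0.80 after NaOH, and Trp53 was called in none of these. In all, 10 and 10 of the 21 were higher after 2 and 4 h of 1% CO2 and 7 and 11 after NaOH, which was 47.6%, 47.6%, 33.3% and 52.4%, against 16.0%, 20.3%, 23.0% and 28.2% of all genes. Lower were 0, 2, 2 and 1 of the 21, against 12.4%, 18.9%, 20.4% and 26.9% of all genes.

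**Figure D5:**
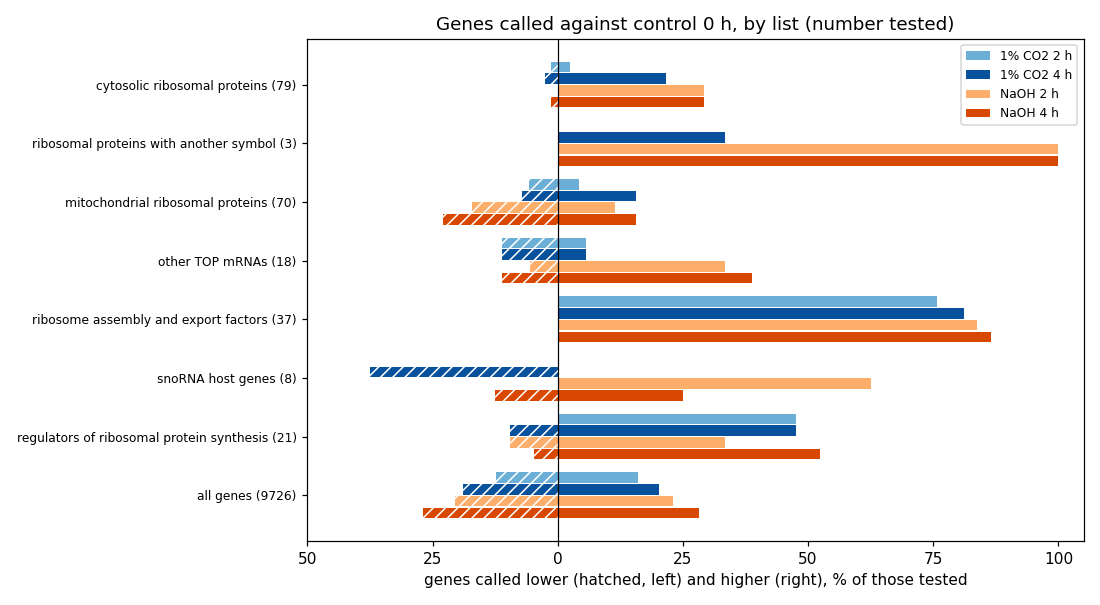
Share of genes called higher (right) and lower (left, hatched) against control 0 h, in percent of the genes of each list tested, whose number stands in brackets. Bars are the 4 treated groups; ribosome assembly and export factors are higher at 75.7% to 86.5% and the ribosomal protein genes at 2.53% to 29.1%.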

How the data were processed

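RNA of 20 NIH3T3 samples was sequenced by bulk MARS-seq. The authors trimmed the reads with cutadapt, mapped them to mm10 with STAR (the submitters' processing notes give version 2.4.2a), and counted UMIs with HTSeq-count on RefSeq genes extended by 1000 bases upstream and 100 bases downstream. The deposited table holds these raw counts and, as a second set of columns, the authors' normalized signal, which is the counts divided by 1 DESeq2 size factor per library (largest relative deviation 9.83e-15) and was used for that check only. All columns matched a sample.

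Raw counts were tested in R 4.3.3 with edgeR 4.0.16 (TMM, robust quasi-likelihood, all 20 libraries in 5 groups, no covariate) for 9726 genes whose mean scaled count was 5 or more, with Benjamini-Hochberg adjustment over all of them; 1349 genes were left out. The study's own fit, DESeq2 (1.42.0 here), was an alternative, as were other scalings, filters, symbol rules and leaving out each library; leaving out the 3 libraries together was chosen after seeing the data. A trailing digit (Rps3a1, Rpl22l1) counted as within the symbol rule. Named genes were up to 3 members called in each direction of each comparison by size, all passing the study's rule, all switching members, the 3 highest and 3 lowest levels tested, the stalk genes, Rpl5, Rpl11 and the paralogs; Rpl7, Rpl12, Rpl37, Rps3, Rps7, Rps10 and others beyond these were chosen after their values were seen. Some results of the rule are not reported here. The members, lists and tests were chosen with earlier results of these data known. Sequences are RefSeq's (GRCm38.p6), and transcripts GENCODE vM21, of the assembly mm10 is made from. The test was tried on simulated data first. Reads shared with gene copies and overlapping genes make single members uncertain.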

Additional observations from a re-analysis of the deposited data

Results flagged for a closer look

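In 125 sets of 4 libraries, the levels of 24 named members and their summed share in 5 groups each, 1 library lay far from the other 3 in 10 sets by Dixon's test, where chance alone would give about 1 in 20, or 6.25. For Rps2 these were control replicate 2 at 56.6 and NaOH 4 h replicate 4 at 76.0, and for Rpl29 NaOH 4 h replicate 1 at 22.0. Replicate 3 of 1% CO2 at 2 h, 1 of the libraries that stand apart, was far above its group in Rplp0 (12179.5) and Rpl36al (1194). The others were Rplp2 in 1% CO2 4 h replicate 4 (11472), Rps27l in NaOH 4 h replicate 1 (1406), Rpl22l1 in NaOH 4 h replicate 2 (8.02), and Rps15a in control replicate 1 (1.11) and NaOH 2 h replicate 3 (13.4). The switching members Rps2 and Rpl29 were named for their spread within groups, and the sets of different genes share libraries. The count of 10 against 6.25 is therefore not a test.

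In 8 members the difference between 1% CO2 and NaOH was another at 4 h than at 2 h by the interaction term of the edgeR fit. The change in log2FC was 0.65 for Rpl37, 0.50 for Rps21, 0.48 for Rpl36al, 0.39 for Rps28 and 0.33 for Rpl32, in the direction of 1% CO2. Those in the direction of 1% CO2 each had the highest level of their group in all 3 libraries that stand apart. The change was -0.52 for Rpl7l1, -0.51 for Rps16 and -0.40 for Rpl7, in the direction of NaOH. Adjusted p ran from 0.00998 for Rps16 to 0.0469 for Rpl7l1, whose call was lost with the study's DESeq2 settings (adjusted p = 0.0628).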

How the results depend on the processing

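Counts of called members depended most on the scaling. How many of all genes were called was counted only in the fit described above, not under these alternatives. With library sizes alone in place of TMM factors, 1 member was higher and 4 lower after 2 h of 1% CO2, 6 and 14 after 4 h, 4 and 6 with NaOH for 2 h, and 9 and 6 with NaOH for 4 h, and 1% CO2 against NaOH gave 2 higher and 7 lower at 2 h and 6 higher at 4 h. DESeq2's size factors kept all counts within 1.5 times. With TMM factors computed without the members 1 was lower after 4 h of 1% CO2, and with no filter 1 was higher at 1% CO2 than with NaOH at 4 h. The study's DESeq2 fit gave 4 lower after 4 h of 1% CO2 and 1 lower in the interaction. Fits on only the 2 groups compared gave 6 lower after 4 h of 1% CO2, 1 lower after 2 h and 36 higher after 4 h of NaOH, and 6 higher at 1% CO2 than with NaOH at 4 h. Without Rps3a1, Rpl22l1 and Rpl7l1, whose suffix ends in a digit, 1 was higher after 2 h of 1% CO2. In that setting 1 was higher at 1% CO2 than with NaOH at 4 h. Without the 3 libraries that stand apart 2 were lower after 2 h of 1% CO2, 36 higher after 4 h of NaOH and 4 higher at 1% CO2 than with NaOH at 4 h. With a switching ratio of 2 there were 14 switching members.

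Leaving out 1 library at a time, the number higher was 1 to 3 and 8 to 18 after 2 and 4 h of 1% CO2, 18 to 24 and 19 to 27 after NaOH, and 0 and 0 to 5 for 1% CO2 against NaOH at 2 and 4 h. The number lower was 0 to 2 and 1 to 5 after 1% CO2, 0 and 1 after NaOH, and 10 to 24 and 11 to 20 for 1% CO2 against NaOH. The calls of Rpl22 after 4 h of both treatments, of Rpl22l1 after 4 h of 1% CO2 and of Rpl7l1 and Rps26 after NaOH were lost in none of these. No call of a named member changed direction under the alternatives. The members' median changed sign with library sizes alone after 4 h of 1% CO2 and 2 h of NaOH, and after 2 h of 1% CO2, where it lay near 0, with 4 other settings and without any of 5 single libraries.

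The replicate numbers do not pair the libraries: over 40 same-numbered pairs of libraries the correlation of deviations was -0.35 to 0.31, and 1 of 20 libraries correlated best with its own number. With the replicate block, 1 stood higher at 1% CO2 than with NaOH at 4 h, while in the interaction 3 were higher and 1 lower. The calls of Rps26 and Rps27l after 4 h of 1% CO2, of Rpl36al between the treatments at 4 h and of Rpl7l1 in the interaction were lost with it (adjusted p 0.0582 to 0.0738). Depth limits Rps15a, Rpl34, Rpl21 and Rpl22l1, whose raw counts reach at most 68 in a library.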
